A study of Camelus dromedarius with 4 samples.

Results

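Cadherins and protocadherins, the calcium-dependent adhesion molecules of the cell surface, were examined in the supraoptic nucleus of the dromedary camel in winter and summer. Members were chosen by name: gene symbols starting with PCDH, or with CDH and a digit, were taken from the authors' table of season means, leaving out CDH5 and the cadherin-related CDHR genes. Of the 60 symbols that fitted, 4 (CDH10, PCDHB2, PCDHB11 and PCDHB17) had no season means, which left 56 members of the 16049 symbols with both means. The members were 21 cadherins, 12 non-clustered protocadherins and 23 clustered protocadherins of the alpha, beta and gamma groups. The study used RNA-seq to ask which transcripts of this nucleus differ with season.

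The animals were adult, age-matched male dromedaries of the Tergui breed, all hydrated, slaughtered in the Algerian Sahara in winter or in summer. Each season gave 2 libraries, winter replicates 2 and 3 and summer replicates 1 and 2. The winter and summer animals were slaughtered in different places, so season, place and slaughter date cannot be told apart. Dissected tissue was sequenced in bulk, so fewer cells of a type and less RNA per cell cannot be told apart either. With 2 libraries a season, p-values measure only the spread between these samples.

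Classical cadherins join like cells through an outer part that binds the same cadherin on the neighbouring cell and an inner tail that holds catenins and, through them, actin. Non-clustered protocadherins act in axon and dendrite growth and at synapses. Clustered protocadherins are expressed in different mixtures by individual neurones through the choice of alternative promoters, and let a neurone tell its own branches from those of others. In the supraoptic nucleus, astrocyte processes lie between the magnocellular neurones, which make vasopressin and oxytocin, and these contacts are known in rodents to be remodelled with the demand for hormone.

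The season means are reads divided by size factors that the authors estimated with DESeq, and are called normalised reads here. Each mean is built from 2 whole numbers of reads, and for 35 members only a single pair of numbers gave the deposited mean in both seasons, so that the reads of each library could be recovered. Of these, 28 had a season mean of at least 10 and were tested. Another 21 members passed the same minimum but allowed several pairs of numbers, and for them the authors' season means are given with no error. The libraries of a season were called a and b, with a the library of the larger size factor (winter 1.33 and 0.946, summer 0.922 and 0.877), since the means do not say which replicate is which. The count files held 4379162 to 6902037 reads on gene models per library, but could not be tied to gene names. The recovered reads were compared with these files for 4188 symbols with many recovered reads. Only 1 of these symbols equalled a gene model in all 4 libraries. The reads of each library therefore rest on the season means alone. The count files did not bear them out, and the reason for the mismatch was not tested. The libraries of a season were not copies of each other, and across genes the normalised reads had a Spearman correlation of 0.853 within winter and 0.658 within summer, against 0.749 to 0.823 between libraries of different seasons, so the summer pair stood further apart than any winter and summer pair. Transcripts that mark the dissected tissue were present, with authors' means of 11822 in summer and 2560 in winter for the transcript listed as putative AVP, and 592 and 621 for OXT.

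In their median these genes lay close to even between the seasons, with some members of each kind well apart. A larger share of them was over 1.5-fold apart than of all symbols. The median log2 ratio of winter to summer means (each plus 1) was -0.08 over the 49 members with a season mean of at least 10, beside -0.04 over all 13808 such symbols. In 29 of the 49 the means were within 1.5-fold, beside 10851 of the 13808 symbols. Winter was over 1.5-fold higher in 9 members (18.4%), where 9.76% of all symbols passed that mark, and summer was over 1.5-fold higher in 11 (22.4%), where 11.7% did. CDH24, CDH26, PCDHGB4 and PCDHGB6 are among these 20 and passed the minimum in the higher season only.

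None of the 28 tested members passed a test for season. With edgeR's quasi-likelihood test, 0 members had an unadjusted p under 0.05 with more than a 2-fold difference, the rule the study used, against 1.68% of the 7341 symbols tested. By unadjusted p alone 0 members passed 0.05, against 2.13% of symbols, and by adjusted p 0 members, against 0%. Adjusted p-values of the members ran from 0.975 to 0.997. edgeR's exact test gave 0 members with an unadjusted p under 0.05, where 1.48% of symbols passed, and DESeq2 gave 3 (PCDH1, PCDH18 and PCDHAC2), each under 2-fold, where 3.58% of symbols passed. These calls depended on summer library b: without it 9 members (32.1%) passed the 2-fold rule, where 14.0% of all symbols then did, and 3 (PCDH8, PCDHAC2 and PCDHB3) an adjusted p of 0.05 with the quasi-likelihood test, where 2.37% did. In that fit the spread came from the winter pair alone, and the lone summer library was assumed to vary like it. Without summer library a 2 members (CDH26 and PCDHGB6, 7.14%) passed the 2-fold rule, where 14.2% of symbols did. Without winter library b 1 member (PCDH8, 3.57%) passed it, where 0.545% did, and none of these 3 passed by adjusted p.

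The libraries of the 2 seasons did not overlap in 16 of the 28 tested members. Winter was higher in each library than summer for 6 members (CDH12, CDH24, PCDH1, PCDH19, PCDH20 and PCDHGB4), 21.4% of those tested, where 13.4% of all symbols did so. Summer was higher in each library for 10 members (CDH1, CDH6, CDH26, PCDH12, PCDH18, PCDHAC1, PCDHAC2, PCDHB3, PCDHGA7 and PCDHGB5), 35.7%, where 17.5% of all symbols did so. Among the 16, CDH24, CDH26 and PCDHGB4 passed the minimum season mean in the higher season only. With TMM, relative log or total-read scaling PCDH12 and PCDHGB5 overlapped and the other 14 kept their order. Reads could be recovered for fewer symbols with high winter means than with high summer means, because more pairs of numbers fit a winter mean.

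**Figure D1:**
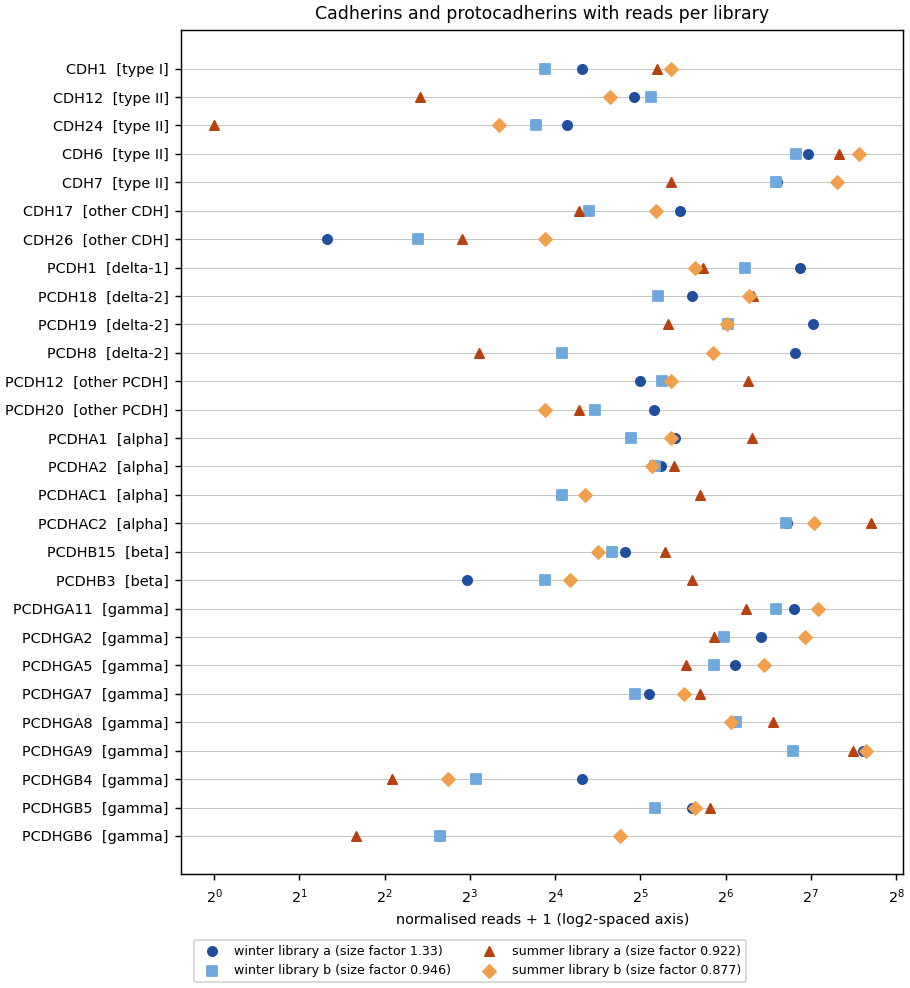
Normalised reads plus 1 (log axis) of the 28 tested members in each of the 4 libraries, with 1 point per library and members grouped by class. In 16 members the points of the 2 seasons do not overlap, and for members such as PCDH8 and PCDHGB6 the libraries of a season lie as far apart as the seasons.

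Type I classical cadherins carry the strongest adhesion and include the founding members of the family. N-cadherin, CDH2, the main classical cadherin of neural tissue, had authors' means of 484 in winter and 498 in summer. R-cadherin, CDH4, was 1.55-fold higher in winter, with means of 151 and 97.9, but its winter mean allowed 2 pairs of reads and the seasons overlapped with either. E-cadherin, CDH1, the adhesion molecule of epithelia, had 18.9 and 13.7 normalised reads in winter against 35.8 and 39.9 in summer. Each summer library lay above each winter library, and CDH1 differed by -1.18 ± 0.59 on the log2 scale (winter over summer, SE), with an adjusted p of 0.975 by edgeR. CDH3, next to CDH1 with no protein-coding gene between them in the RefSeq gene order, was near the limit of detection, with 7 and 1 reads in winter but 0 in both summer libraries. CDH15, the cadherin of muscle, was as low, with 8 and 2 reads in winter against 0 and 1 in summer, and no fold is given for either.

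Type II cadherins are expressed in patterns that mark neural circuits, and all 11 members had a season mean of at least 10. Their median log2 ratio was 0.10, with 8 of 11 within 1.5-fold, where 10851 of 13808 symbols were. The members with most reads were even between seasons: authors' means were 662 in winter and 610 in summer for CDH11, 477 and 435 for CDH20, and 425 and 494 for CDH8. CDH12, a cadherin of the brain, had 29.4 and 33.8 normalised reads in winter against 4.34 and 23.9 in summer. Its winter libraries were close to each other and lay above both summer libraries, which differed 5.52-fold, and the log2 difference of 1.17 ± 0.77 had an adjusted p of 0.975 (edgeR). That difference was 0.39 without summer library a and 2.83 without summer library b. CDH24 had 16.6 and 12.7 normalised reads in winter, but 0 in summer library a and 9.12 in summer library b. With so few reads its log2 difference of 1.71 ± 1.14 (adjusted p = 0.975, edgeR) rested on that empty library, and was 0.69 without it. CDH6, first known from kidney and also a cadherin of the developing brain, was the only tested type II member with both summer libraries above both winter libraries. It had 124.5 and 112 normalised reads in winter against 159 and 188 in summer, a log2 difference of -0.55 ± 0.28 with an adjusted p of 0.975 (edgeR).

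CDH22 had authors' means of 182 in winter and 109 in summer, 1.66-fold apart. Its summer libraries held 92 and 104 reads, while 3 pairs of winter reads gave the winter mean: 201 and 200, 16 and 332, or 386 and 68. In the first of these both winter libraries are above both summer libraries and in the others they are not, and the adjusted p was 0.998 for each. CDH7 showed how a level mean can hide unlike libraries. It had 95.8 and 95.2 normalised reads in winter against 40.1 and 157 in summer, a 3.92-fold spread within summer around a log2 difference of -0.04 ± 0.56 that turned positive under the other scalings. It was -0.72 without summer library a and 1.25 without summer library b.

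Among the cadherins of other builds, CDH23, which with PCDH15 forms the tip links of sensory hair cells, had authors' means of 467 in winter and 380 in summer. T-cadherin, CDH13, which is anchored by a lipid and has no inner tail, had means of 169 and 187. CDH17, a cadherin of intestine and liver, had 43.0 and 20.1 normalised reads in winter against 18.4 and 35.3 in summer, so that the seasons overlapped. CDH26 was low, with 1.51 and 4.23 normalised reads in winter against 6.51 and 13.7 in summer. Both summer libraries were higher, and the log2 difference was -1.87 ± 1.08 with an adjusted p of 0.975 (edgeR), and -1.22 without winter library a. CDH16, the kidney cadherin, had 4 and 1 reads in winter against 0 and 6 in summer.

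The delta-1 protocadherins included the member with by far the most reads, PCDH9, with authors' means of 3608 in winter and 3566 in summer. PCDH7 was likewise even, at 484 and 518, and PCDH11X had means of 284 and 344. PCDH1, an adhesion protein of axons and airway epithelium, stood apart from its class. It had 116 and 74.0 normalised reads in winter against 52.1 and 49.0 in summer. Both winter libraries were higher while the summer pair was tight, and the log2 difference of 0.92 ± 0.41 had the smallest p of any tested member and an adjusted p of 0.975 by edgeR. It is also the member that reached the 2-fold rule under total-read scaling, with a log2 difference of 1.01.

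Of the 5 delta-2 protocadherins 4 had higher winter means, with a median log2 ratio of 0.55. PCDH10, which acts on actin in growing axons, had authors' means of 551 in winter and 375 in summer, 1.47-fold apart, and PCDH17, a synaptic protocadherin, had 303 and 210, 1.44-fold apart. PCDH19, mutated in a form of epilepsy, had 129 and 64.5 normalised reads in winter against 39.0 and 63.8 in summer. The lower winter library and the higher summer library nearly met, and the log2 difference was 0.94 ± 0.48 with an adjusted p of 0.975 (edgeR), and 0.33 without winter library a. PCDH8, which is induced by neuronal activity in rodents and helps to withdraw N-cadherin from synapses, had 111.7 and 15.9 normalised reads in winter against 7.59 and 57.0 in summer. The libraries differed 7.04-fold within winter and 7.51-fold within summer, and its log2 difference of 1.06 ± 0.97 fell to -1.01 without winter library a and reached 3.10 without summer library b. PCDH18 ran the other way, with 47.5 and 36.0 normalised reads in winter against 79.2 and 76.4 in summer. Both summer libraries were alike and above both winter libraries, with a log2 difference of -0.88 ± 0.41 and an adjusted p of 0.975 (edgeR).

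Outside the delta groups, PCDH15 had authors' means of 446 in winter and 588 in summer. PCDH12, an endothelial protocadherin, had 30.9 and 37.0 normalised reads in winter against 75.9 and 39.9 in summer, a log2 difference of -0.78 ± 0.52 with an adjusted p of 0.975 (edgeR), and of -0.24 without summer library a. The endothelial cadherin CDH5, which is not a member, had 37.7 and 36.0 normalised reads in winter against 15.2 and 23.9 in summer, so the season means of these endothelial genes ran in opposite directions. PCDH20 had 34.7 and 21.2 normalised reads in winter against 18.4 and 13.7 in summer. Its winter libraries were both higher, by a log2 difference of 0.82 ± 0.66 with an adjusted p of 0.975 (edgeR).

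**Figure D2:**
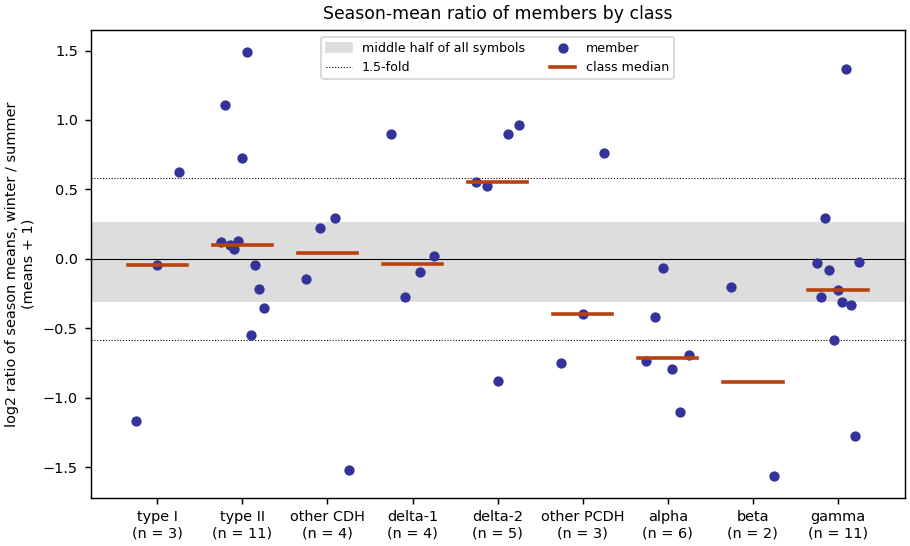
Log2 ratio of the authors' winter mean to the summer mean (each plus 1) for the 49 members with a season mean of at least 10, by class, with a bar at each class median. The grey band runs from the lower to the upper quartile of all 13808 symbols and dotted lines mark 1.5-fold. Under the authors' scaling all 6 alpha and both beta members lie on the summer side (PCDHA2 turned under total-read scaling), and 4 of 5 delta-2 members on the winter side.

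The clustered protocadherins leaned to summer in their means, in 17 of the 19 members with a mean of at least 10, with a median log2 ratio of -0.31. Of all symbols 53.8% had a higher summer mean. Of the 15 tested, 14 had a fitted difference below 0 (58.6% of all symbols tested), and 11 under total-read scaling (51.2%). In each of the alpha and gamma groups every transcript ends in the same constant exons, so reads from a member can be counted on another or left out, and members of these groups are not independent. How the authors' gene models divide these exons is not given in the sources used here, and only 3 of the 23 clustered members matched a RefSeq symbol.

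All 6 alpha members with a mean of at least 10 had higher summer means, with log2 ratios from -1.10 to -0.07 and a median of -0.71, although PCDHA2 turned under total-read scaling. PCDHAC2, a C-type isoform that neurones express without the random choice made among the others, had 104 normalised reads in both winter libraries and 207 and 130 in summer. Both summer libraries were higher, by a log2 difference of -0.70 ± 0.32 with an adjusted p of 0.975 (edgeR), which shrank to -0.32 without summer library a. PCDHAC1, the other C-type alpha isoform, had 15.8 and 15.9 normalised reads in winter against 51.0 and 19.4 in summer. Again the winter libraries were alike and summer library a was the highest, with a log2 difference of -1.15 ± 0.69 and an adjusted p of 0.975 (edgeR), which shrank to -0.29 without that library.

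PCDHA1 had 41.5 and 28.6 normalised reads in winter against 78.1 and 39.9 in summer. Its seasons overlapped, and the log2 difference was -0.73 ± 0.53 with an adjusted p of 0.975 (edgeR), which shrank to -0.17 without summer library a. PCDHA2 was level, with 37.0 and 34.9 normalised reads in winter against 41.2 and 34.2 in summer, and its log2 difference of -0.07 ± 0.50 became 0.02 under total-read scaling. For PCDHA6 the authors' means were 96.6 in winter and 168 in summer. Its winter reads were 123 and 95, and its summer reads were 190 and 114 or 5 and 290. The first pair puts both summer libraries above winter and the second does not, and the adjusted p was 0.998 for each (edgeR). PCDHA11, the alpha member with most reads, had means of 269 and 359. PCDHA9 had 2 reads in each winter library and 6 and 3 in summer.

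The beta members are each encoded by a single exon, without the shared end. PCDHB3 had the lowest log2 ratio of the 49, with 6.79 and 13.7 normalised reads in winter against 47.7 and 17.1 in summer. Both summer libraries were higher, by a log2 difference of -1.72 ± 0.80 with an adjusted p of 0.975 (edgeR), and by -0.78 without summer library a. PCDHB15 was nearer to even, with 27.2 and 24.3 normalised reads in winter against 38.0 and 21.7 in summer. PCDHB1 had reads in 1 library alone, 3 in summer library b, and PCDHB7 had at most 2 in any library.

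The gamma group was the least displaced of the clustered protocadherins, with a median log2 ratio of -0.23. Of its members 8 of 11 were within 1.5-fold, where 10851 of 13808 symbols were. Its members with most reads were PCDHGC4, a C-type isoform needed for neurone survival in mice, at authors' means of 478 in winter and 486 in summer, and PCDHGA4, at 273 and 222. PCDHGA9 had 194 and 110 normalised reads in winter against 179 and 199 in summer, and the seasons overlapped, with a log2 difference of -0.30 ± 0.32 and an adjusted p of 0.975 (edgeR). PCDHGA7 had 33.2 and 29.6 normalised reads in winter against 51.0 and 44.5 in summer. Its pairs were tight and apart, but the log2 difference of -0.60 ± 0.49 had an adjusted p of 0.975 (edgeR) at these read numbers. PCDHGB5 had 47.5 and 34.9 normalised reads in winter against 55.3 and 49.0 in summer, with both summer libraries higher by a small margin (adjusted p = 0.975, edgeR).

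PCDHGB4, like PCDHGA4, had a higher winter mean, with 18.9 and 7.40 normalised reads in winter against 3.25 and 5.70 in summer. Both winter libraries were higher, and the log2 difference was 1.61 ± 0.97 with an adjusted p of 0.975 (edgeR), and 0.72 without winter library a. PCDHGB6, with 5.28 and 5.29 normalised reads in winter against 2.17 and 26.2 in summer, had its higher summer mean from library b alone, and the log2 difference of -1.38 ± 1.13 became 1.24 without that library. PCDHGB1 had 7 and 1 reads in winter but 0 in both summer libraries. The other 4 tested gamma members, PCDHGA2, PCDHGA5, PCDHGA8 and PCDHGA11, had log2 differences from -0.26 to -0.02. That of PCDHGA11 turned positive under each of the other scalings, and that of PCDHGA5 under total-read scaling.

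The summer libraries differed from each other in opposite ways for different classes. Reads of both summer libraries were known for 36 members with a mean of at least 10, and the median size of the log2 difference between libraries a and b was 0.81, beside 0.53 over 10369 symbols. In winter it was 0.36 for 29 members, beside 0.42 over 7372 symbols. All 4 alpha and both beta members were higher in summer library a, where 4417 of 10369 symbols were. Of the gamma members, which are also clustered, 3 of 9 were. The type II cadherins went the other way from the alpha and beta members, with 7 of 8 higher in summer library b. Among them CDH9 had 80.2 normalised reads in library a and 256.5 in library b, and CDH18 had 99.8 and 204. Of type I, CDH4 had 48.8 and 147. CDH19, a cadherin of glia of the peripheral nerve lineage, was the exception among type II, with 450 and 385. Summed over the 4 tested alpha members, normalised reads were 198.5 and 183 in winter and 377 and 223 in summer, so this sum was nearly level in 3 libraries and higher in summer library a. PCDHA6 and PCDHA11, whose summer reads were not recovered, are not in it. Summed over the 4 tested type II members, they were 266 and 254 in winter and 204 and 378 in summer.

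**Figure D3:**
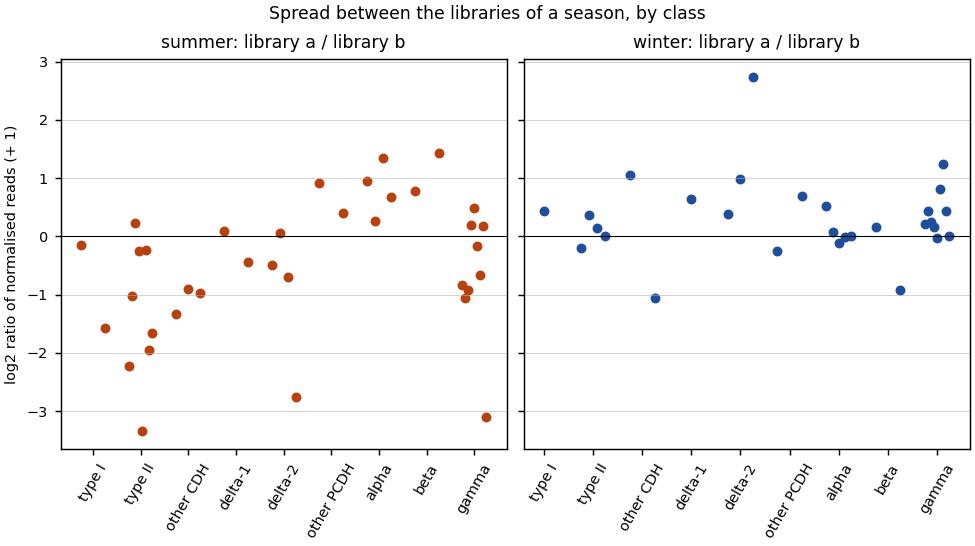
Log2 ratio of library a to library b within summer (36 members) and within winter (29 members), by class, with 1 point per member. In summer the alpha and beta members lie above 0 and the type II cadherins other than CDH19 lie below it. In winter the median size was 0.08 for alpha and 0.17 for type II members, with PCDHA1 at 0.52 and CDH24 at 0.36.

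Cell type markers differed between the same summer libraries. Summed normalised reads were 477 in library a and 680.5 in library b over 5 neurone genes, 263.5 and 735 over 5 astrocyte genes, and 612 and 361 over 4 oligodendrocyte precursor genes. They were 224.5 and 122 over 2 microglia genes, 250.5 and 224.5 over 4 endothelial genes and 440 and 464 over 6 leptomeningeal genes. Within the neurone list SYT1, SNAP25, RBFOX3 and GAP43 were higher in library b (SYT1, a synaptic vesicle protein, 36.9 and 116), and ELAVL3 was higher in library a (169 and 112). Between the seasons, 4 astrocyte genes summed to 445 and 189 in winter and 153 and 392 in summer, 2 precursor genes to 186 and 197 in winter and 220 and 141 in summer, and the 4 endothelial genes to 223 and 192.5 in winter. The astrocyte sum leaves out GFAP and GJA1, whose reads were not recovered in both seasons. Over all 6 astrocyte genes the season means had a median log2 ratio of -0.28. GFAP, GJA1 and AQP4 were over 1.5-fold higher in summer, and the other 3 were higher in winter by less than 1.5-fold. The 6 leptomeningeal genes summed to 385 and 329 in winter, below both summer libraries. Of the 5 tested COL1A2, a fibrillar collagen, had an unadjusted p under 0.05 with edgeR, where 2.13% of all symbols did. Its log2 difference was -1.02 ± 0.39, with an adjusted p of 0.975 (edgeR). COL1A1, of the same list, ran the other way, at 0.24 ± 0.58. Of 7 neurone genes 6 had a higher winter mean, with a median log2 ratio of 0.53 and 3 over 1.5-fold, while the putative AVP transcript was higher in summer. Ependymal markers were low, at 2.17 to 29.6 in sum over 2 genes. The part of tissue make-up in the values of the cadherins and protocadherins was not tested.

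The catenins and other junction partners that hold the cadherin tail were even between the seasons for the most part. All 16 listed genes had a season mean of at least 10, with a median log2 ratio of -0.12. Plakoglobin, JUP, had authors' means of 613 in winter and 310 in summer, the phosphatase PTPRF 1004 and 564, and the catenin ARVCF 362 and 240, and no listed gene was over 1.5-fold higher in summer. These 3 were the only listed genes over 1.5-fold higher in winter, where 9.76% of all symbols were, and none of them could be tested. Of the 4 that were tested 0 passed an unadjusted p of 0.05 with edgeR, and the 3 with the smallest p had log2 differences of 0.41 ± 0.47 for CTNNBIP1, an inhibitor of beta-catenin, -0.39 ± 0.46 for PKP2, a desmosomal plaque protein, and -0.22 ± 0.29 for CTNND1, which holds cadherins at the membrane.

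A list of cadherin proteases, regulators of protocadherin promoters and the kinases and actin regulators that act with protocadherins showed no gene beyond 1.5-fold among 20 with a season mean of at least 10, with log2 ratios from -0.43 to 0.41. Of these 2 were tested with edgeR and 0 had an unadjusted p under 0.05. SMC1A, a subunit of the cohesin ring that loops the clustered promoters, had a log2 difference of 0.40 ± 0.31, and PSEN2, a catalytic subunit of gamma-secretase, -0.09 ± 0.49. In the rest of the cadherin superfamily 3 of 23 genes were over 1.5-fold higher in winter and 4 in summer, where 9.76% and 11.7% of all symbols were. Of 13 tested 0 had an unadjusted p under 0.05. The desmosomal cadherin DSG3 had 3.02 and 4.23 normalised reads in winter against 5.42 and 23.9 in summer, with an adjusted p of 0.975 (edgeR), and DSG4 had 15.9 and 23.3 in winter and 11.9 and 83.2 in summer, with an adjusted p of 0.975 (edgeR). In both the summer mean came mostly from library b. CDH5 had an adjusted p of 0.975 (edgeR), with both winter libraries above both summer libraries. The outcome for the catenin and superfamily lists depended on whether both summer libraries were kept. A fit with a lone summer library takes its spread from winter alone.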

How the data were processed

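RNA-seq libraries of the supraoptic nucleus, 2 per season, were grouped by the season in their labels. The authors aligned reads with TopHat to their own dromedary assembly, counted them with HTSeq and deposited raw counts for 64989 gene models, whose identifiers could not be tied to gene symbols here. Versions are not given in the sources used here. The authors also deposited, per gene symbol, a signal for each season, the mean of reads divided by DESeq size factors. Their table holds edgeR fold changes and p-values as well, which were not used.

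The value of 1 read in each library was found from the low means, and each season mean was solved for 2 whole numbers. Every symbol had a solution in both seasons, and 9582 symbols had only a single one. Those with a season mean of at least 10 (7341 symbols) entered edgeR 4.0.16 (R 4.3.3, glmQLFit and glmQLFTest, the authors' size factors, Benjamini-Hochberg adjustment over all 7341). Symbols listed more than once were left out. Differences are winter over summer, with standard errors from the fit. Ratios of season means used a pseudocount of 1. An exact permutation test of 2 libraries against 2 cannot go below p = 0.333, so none was run. Alternatives were edgeR's exact test, DESeq2 1.42.0, the legacy dispersion fit, other scalings, filters, pseudocounts and fold thresholds, and each library left out. The scripts were tested on simulated data. A count of 0 allows up to 3 reads, and this covers counting error only. Levels of different genes were not compared, since transcript lengths were not used.

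Members and lists were chosen with earlier results of these data known. Named were, in each class, the 3 members with most reads, members with p under 0.05, over 1.5-fold apart or not overlapping between seasons, and in each partner list the 3 genes with the smallest p. Other members, and JUP, PTPRF and ARVCF, were named after their values were seen. Coordinates and sequences are not given here. Figures were drawn with matplotlib 3.10.9.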

Additional observations from a re-analysis of the deposited data

How the results depend on the processing

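Of 153 values under the alternatives, 151 kept their direction, but they cover only the 17 tested members over 1.5-fold apart in season means. Members picked for a large difference are less likely to change direction. Every other tested member except CDH6 and PCDHGB5 changed direction with some library left out. For example, CDH7 ran from -0.72 to 1.25 and CDH17 from -0.41 to 0.81. With each library left out PCDH8 ran from -1.01 (without winter library a) to 3.10 and PCDHGB6 from -2.28 to 1.24 (without summer library b). The number past the 2-fold rule, 0, became 1 of 28 (PCDH1, 3.57%, where 2.18% of symbols passed) under total-read scaling and ran from 0 to 9 with each library left out. By adjusted p it ran from 0 to 3, for catenins from 0 to 1 and for the other superfamily genes from 0 to 5 by the 2-fold rule. With a summer library left out, fewer samples set the spread. Of the 20 members over 1.5-fold apart, 8 were over 2-fold apart, and of the 28 tested members, 17 of which were among the 20, 13 were over 1.5-fold apart without summer library a and 18 without summer library b, alternatives chosen after seeing the data. The median log2 ratio of members, -0.08, was -0.25 when fitted to the recovered reads of the 28 tested members, -0.23 with TMM, -0.21 with relative log scaling, and -0.55 to -0.10 with each library left out. The 16 members whose seasons did not overlap became 14 (6 higher in winter, 8 in summer) under each other scaling, where 15.2% to 17.3% of all symbols were higher in winter and 12.3% to 14.6% in summer. At a season mean of at least 20, also chosen after seeing the data, 13 of 24 did not overlap, 4 higher in winter (13.8% of symbols) and 9 in summer (18.1%). For all symbols the median fitted log2 difference was -0.12, and -0.02 under total-read scaling. Fits of the members with several solutions, added after seeing the data, put 0 past the 2-fold rule, and PCDH9 had too many solutions to fit. No paired analysis was possible because the winter and summer samples came from different animals. Depth limits the 7 members with means under 10, and the 2 libraries a season limit all differences.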
